A study of Mus musculus with 28 samples.

Results

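RNA sequencing was compared between O9-1 cells held in smooth muscle medium at 0.5% O2 and O9-1 cells left to proliferate at 0.5% O2. Each side had 3 libraries, which make up 6 of the 28 libraries of the series. O9-1 is an established mouse line from the cranial neural crest, the embryonic population that forms much of the skull and face and part of the muscle coat of cranial vessels. The smooth muscle cultures spent 3 days in DMEM with 10% fetal calf serum, and no growth factor is listed for that medium. The proliferating cultures grew in DMEM conditioned by STO feeder cells, with 15% fetal calf serum, 25 ng/ml bFGF and 5 ng/ml LIF, and the time they had spent at 0.5% O2 is not stated in the labels. All 6 libraries therefore share the cell line and the low oxygen, while serum, conditioning, bFGF and LIF change together between the groups and cannot be told apart. The genes described are the nuclear protein-coding ones, 21953 of the 54429 genes in the count table, of which 11814 had enough counts to be tested. The 37 mitochondrial genes and 13037 annotated pseudogenes were set aside before scaling.

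Smooth muscle cells are recognised by a contractile apparatus of actin, myosin and their regulators. The genes for it are switched on by serum response factor (SRF) together with myocardin or the related MRTF proteins, and TGF-beta signalling and release from mitogens such as bFGF are classical inducers. At low oxygen, the factor HIF1 is stabilised and drives genes of glucose uptake, glycolysis and vessel growth. Severe oxygen loss also limits protein synthesis, through ATF4-linked and mTOR-linked pathways that act mainly on translation.

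The smooth muscle libraries differed in make-up from every other group before any gene was tested. In units of 1000000 counts (M), library totals were 19.87 to 25.03 M in the smooth muscle group and 23.89 to 26.68 M in the proliferating group, of which 15.92 to 20.39 M and 22.9 to 25.64 M fell on nuclear coding genes. Mitochondrial genes took 13.249% to 14.545% of all counts in the 3 smooth muscle libraries, 0.766% to 0.831% in the 3 proliferating libraries, and no more than 1.36% in any of the 25 libraries outside the smooth muscle group. Pseudogenes took 3.149% to 3.37% against 1.3% to 1.397%. The short nuclear RNA Rn7sk, which is not polyadenylated, took 0.0613% to 0.0815% against 0.0005% to 0.0007%. The 10 most abundant coding genes held 20.3% to 20.64% of coding counts in the smooth muscle group and 6.86% to 7% in the proliferating group. Coding genes with at least 1 count numbered 12694 to 13151 and 13513 to 13607. These shares move with the group in all 6 libraries, and their part in the results that follow was not tested. In bulk RNA, fewer cells of a kind and less RNA per cell cannot be told apart.

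**Figure D1:**
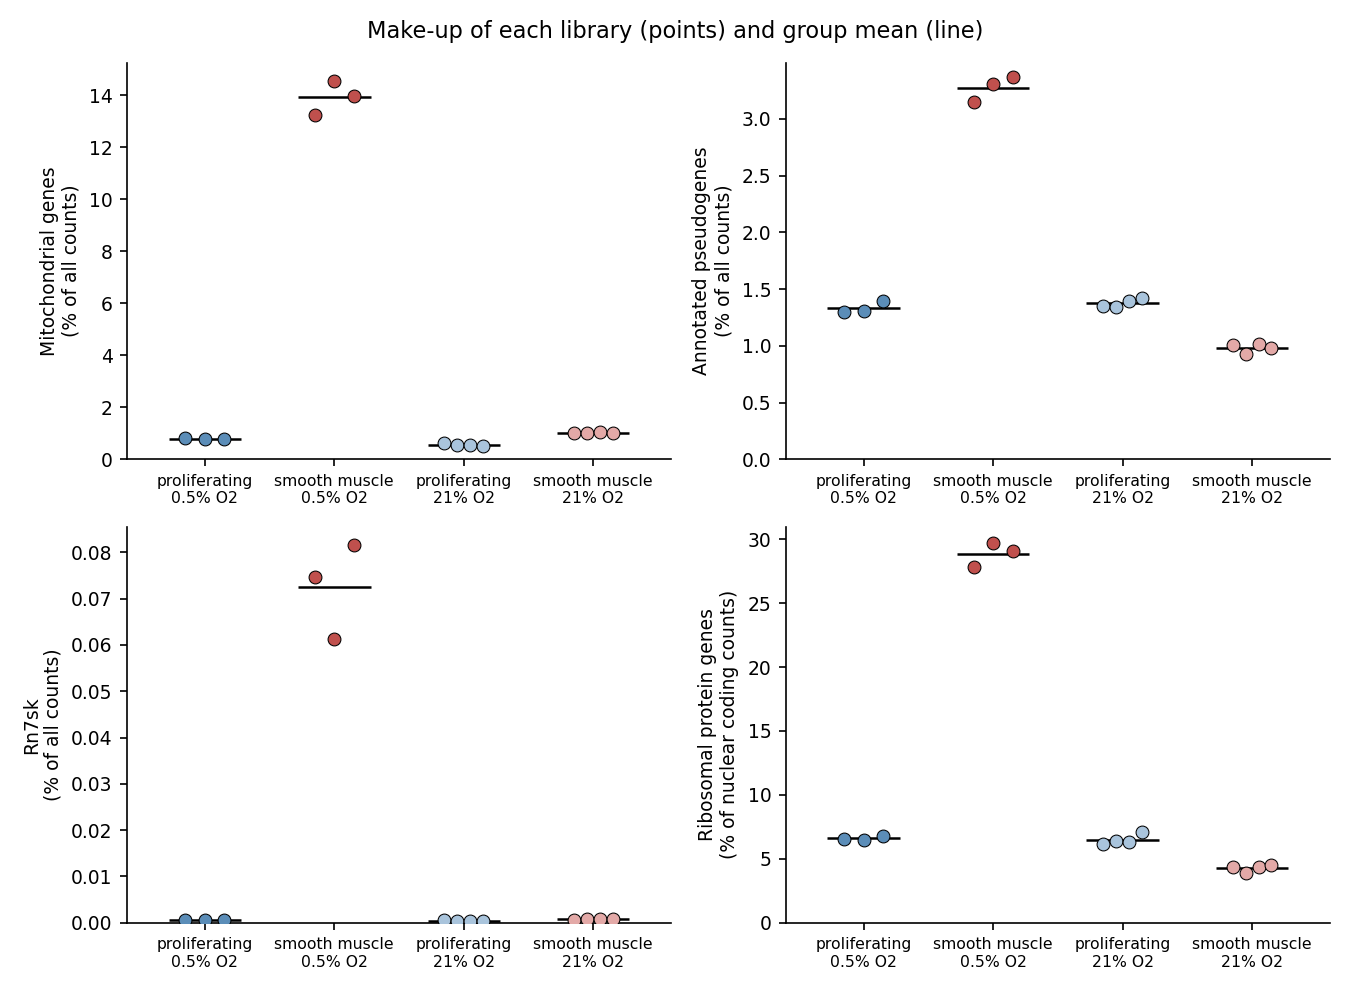
Share of counts per library (points, % on the vertical axes) from mitochondrial genes, pseudogenes, Rn7sk and ribosomal protein genes in 4 groups of libraries, with the group mean as a line. The 3 smooth muscle libraries at 0.5% O2 stand above all libraries of the other groups in each panel, with mitochondrial shares of 13.249% to 14.545%.

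Most coding genes differed between the 2 groups. Of the 11814 genes tested, 8477 were called (71.8%) with edgeR's quasi-likelihood test at a Benjamini-Hochberg adjusted p under 0.05, 4092 of them higher (34.6%) and 4385 lower (37.1%) in smooth muscle medium. A change of at least 1 on the log2 scale, that is 2-fold, was called for 4540 genes (38.4%), 2392 upward (20.2%) and 2148 downward (18.2%). The 3 levels of one group all lay above the 3 of the other for 8933 genes (75.6%). Levels are given as counts per 1000000 TMM-scaled coding counts (CPM), and changes as log2 of smooth muscle over proliferating. With so large a share of all genes called, a call on its own says little about any single gene or list, so the size of the change and the level in each library are given throughout. The split depends on scaling: with the plain coding library size in place of TMM, 1433 genes were higher and 8559 lower. The median change of all genes was -0.07 with TMM and -1.22 with the plain library size, so a rise smaller than about the difference of these medians changes sign there. All p-values measure the spread between these libraries only, since the labels do not say that replicates came from separate cultures.

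**Figure D2:**
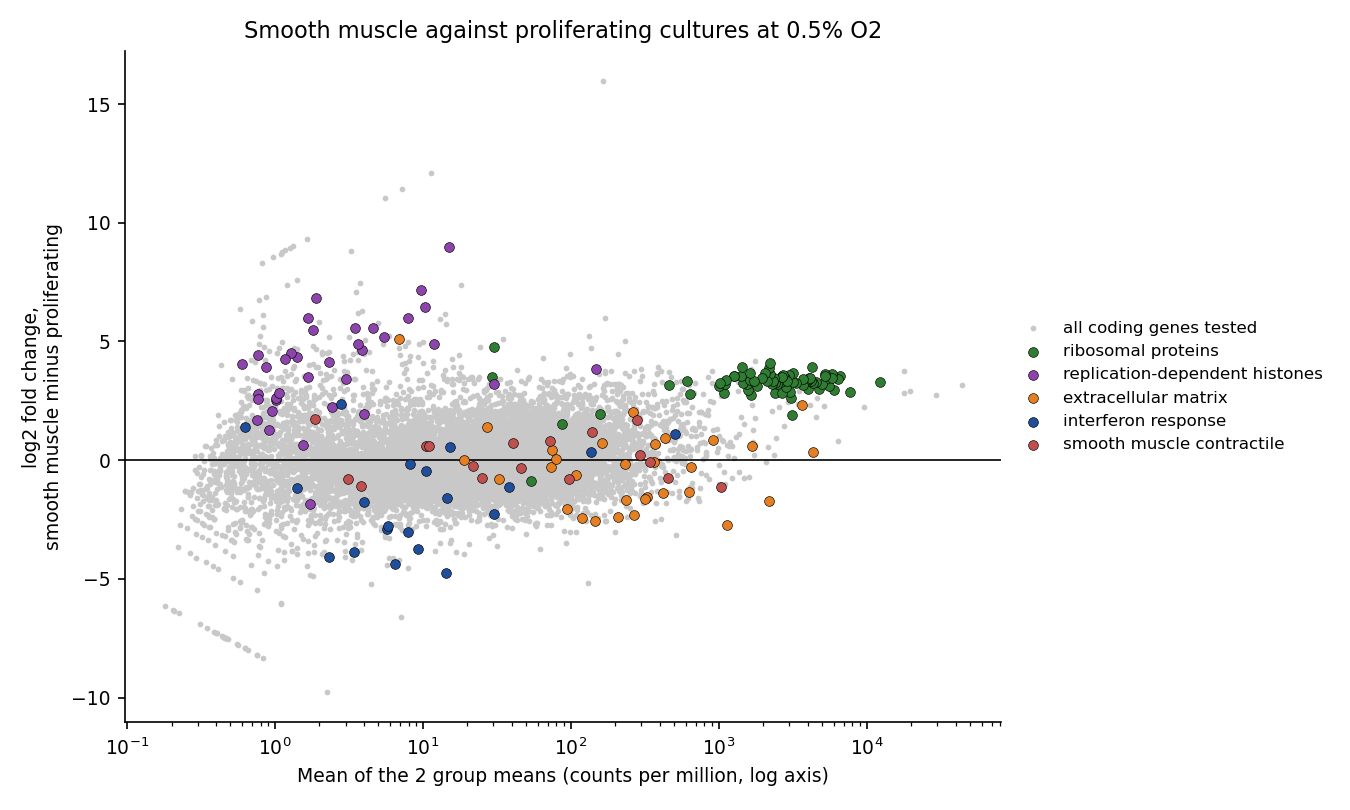
Log2 fold change (vertical axis, smooth muscle minus proliferating at 0.5% O2) of each of 11814 coding genes against its mean level in CPM (log axis), with 5 gene lists coloured. Ribosomal protein genes lie near a log2 change of 3.34 at high levels, interferon response genes lie mostly below 0, and contractile genes are spread on both sides of 0. The rows of grey points at the far left are genes with 0 counts in 1 group, for which the fitted value is no measure of size.

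The contractile programme that defines smooth muscle did not show a common rise in smooth muscle medium at 0.5% O2. Of 23 contractile and regulatory genes, 17 could be tested, and 8 were higher, 7 were lower and 2 were not called, with a median log2 change of -0.06 beside -0.07 for all genes. These counts lie near the 34.6% higher and 37.1% lower among all genes tested. Acta2, the alpha-actin of smooth muscle, had 25.0, 26 and 20.2 CPM in the proliferating libraries and 18, 13.4 and 28.2 CPM in smooth muscle medium. The groups overlapped, and the change of -0.25 ± 0.22 (SE, n = 3 and 3) did not pass the test (edgeR adjusted p = 0.315). Without smooth muscle replicate 3 it was -0.59 and passed as a fall (edgeR adjusted p = 0.014). Tagln, the actin-binding protein transgelin, had 7.19, 8.77 and 9.04 CPM in proliferating libraries and 13.3, 13.8 and 10.7 CPM in smooth muscle medium. These did not overlap, and Tagln rose by 0.59 ± 0.17 (edgeR adjusted p = 0.00841), although without proliferating replicate 1 the change of 0.49 missed the threshold (edgeR adjusted p = 0.0565) and with the plain library size it was -0.55.

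The genes most specific to mature smooth muscle were close to absent. Myocd, the gene for myocardin, had 0 counts in all 6 libraries. Cnn1 (calponin) had 2, 8 and 2 counts in proliferating libraries and 0, 0 and 10 in smooth muscle medium, and Myh11 (smooth muscle myosin heavy chain) had 2, 4 and 1 against 18, 4 and 0. Lmod1, Actg2 and Des also had too few counts to be tested. The label of the group thus has no support from its defining markers, and "smooth muscle" is used below only as the name of the medium.

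Among the contractile genes that rose, Tpm2 (beta-tropomyosin) went from 134 to 430 CPM (1.69 ± 0.09), Csrp1 from 85.5 to 193 CPM (1.17 ± 0.10) and Pdlim7 from 52.1 to 92.2 CPM (0.82 ± 0.10). Srf itself rose from 30.7 to 51.2 CPM (0.74 ± 0.10). The rises of Pdlim7 and Srf lie within the range that changes sign with the plain library size. That of Csrp1 lies near the edge of this range. Myl9, the regulatory light chain of smooth muscle myosin, rose by 1.72 ± 0.51 but from a level under 2 CPM in each proliferating library to 4.54, 1.25 and 2.78 CPM. Genes that fell included Flna (filamin A, from 1410 to 655 CPM, -1.11 ± 0.07), Smtn (smoothelin, -0.81 ± 0.10), Mylk (myosin light chain kinase, -0.79 ± 0.27) and Cald1 (caldesmon, -0.74 ± 0.07). The coactivator genes Mrtfa and Mrtfb fell by 0.33 and 0.73 on the log2 scale. Actin-binding and myosin-regulating genes were therefore found in both directions. The promoter of Acta2 was read in the RefSeq window of 250 bases before to 50 bases after the start (GRCm38.p6). On either strand it holds no match to the strict consensus of the CArG box, the motif bound by SRF, and none to TGANTCA, the motif bound by AP-1. Such matches are present in 1.63% and 7.81% of the 32851 windows. Sites that depart from the consensus are not found by this search, so it does not show that Acta2 lacks sites for SRF or AP-1.

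At 21% O2 the same media gave another picture. Acta2 had 43.1 ± 2.45 CPM (SD, n = 4) in proliferating and 3441 ± 223 CPM in smooth muscle cultures, and Tagln 9.20 ± 0.32 and 310 ± 14.5 CPM. Of the 17 contractile genes, 16 were higher in smooth muscle medium at 21% O2, with a median of 2.20. Of all genes tested there, 79.7% were called, 40.4% higher and 39.3% lower, and 39.4% with at least 2-fold change. The difference between the change at 0.5% O2 and the change at 21% O2 was tested as an interaction in the 14 libraries of the 4 groups, which share no library between the 2 changes. It was called for 9573 of 12706 coding genes (75.3%), upward for 37.9% and downward for 37.4%, and with a size of at least 1 for 50.4%. Among the 17 contractile genes, the change at 0.5% O2 lay below that at 21% O2 for 14 and above it for 3. The difference was -6.60 ± 0.22 for Acta2, -4.50 ± 0.13 for Tagln, -7.06 for Mylk and -5.62 for Myl9 on the log2 scale. Tpm2, Srf and Pdlim7 differed upward, by 0.49, 0.87 and 0.38, values that become -0.74, -0.35 and -0.85 with the plain library size.

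**Figure D3:**
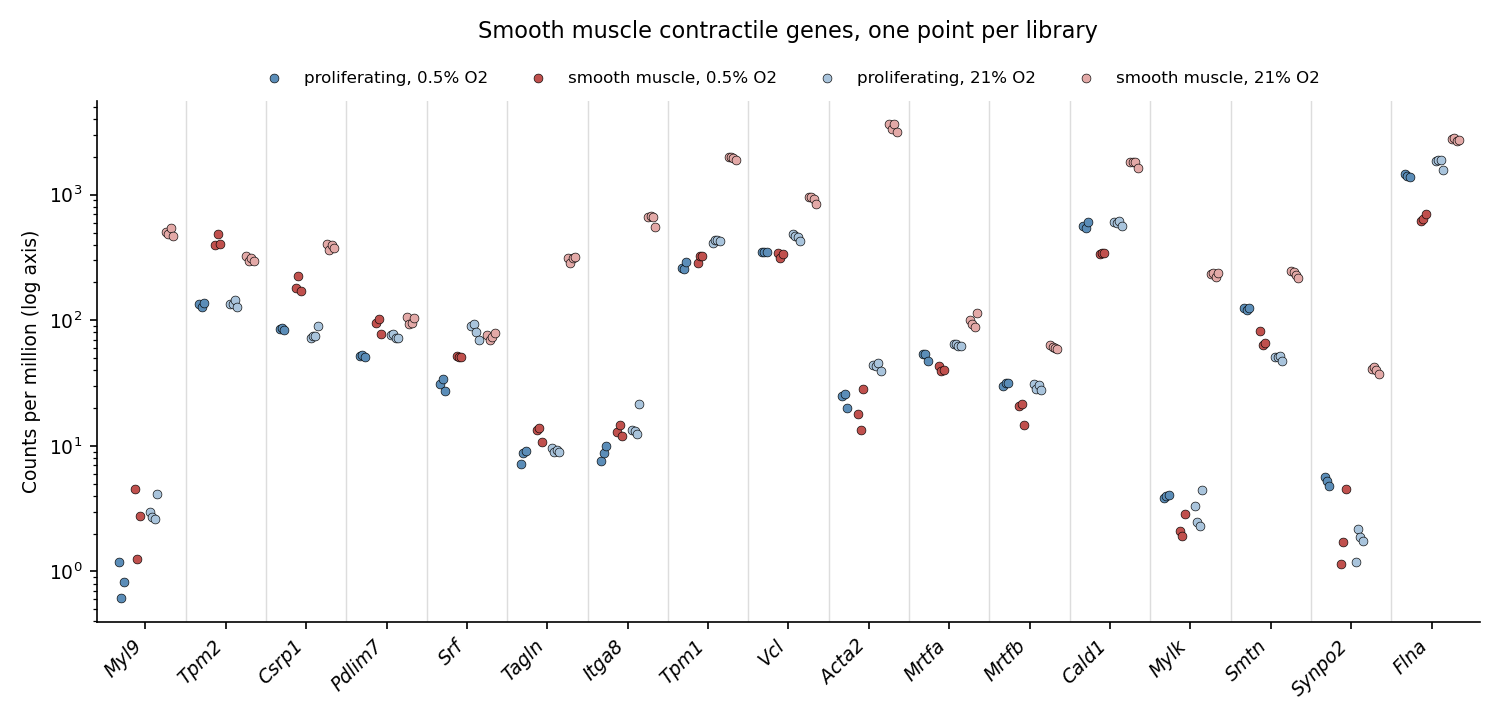
Level of the 17 tested contractile genes in each library (points, CPM on a log axis), with proliferating and smooth muscle cultures at 0.5% O2 and 21% O2 side by side. Acta2 stands at 13.4 to 28.2 CPM in smooth muscle medium at 0.5% O2 and at 3186 to 3628 CPM at 21% O2.

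Rises were ranked among called genes whose groups did not overlap, with a mean of at least 10 counts in both groups and 10 CPM in the higher one, and with ribosomal protein and histone genes passed over. The 12 largest rises so ranked included 2 heat shock genes, Hspa1a and Hspa1b, the immediate early gene Fos and the matrix genes Tnn and Dcn. Hspa1a, which encodes the inducible chaperone HSP70, had 5.35, 5.94 and 4.26 CPM in proliferating libraries and 592, 140 and 267 CPM in smooth muscle medium, a change of 6.01 ± 0.73 (edgeR adjusted p = 0.00125). Its neighbour Hspa1b, whose coding sequence is nearly the same so that reads may be shared between them, rose by 5.03 ± 0.77. Both genes varied several-fold among the smooth muscle libraries, with replicate 1 highest and replicate 2 lowest. Fos, an immediate early transcription factor, went from 0.446, 0.786 and 0.664 CPM to 31.2, 10.2 and 17.1 CPM (4.96 ± 0.42), with the same order of replicates.

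Thap1, a zinc finger transcription factor gene, rose with little spread between libraries. It had 6.69, 6.93 and 7.24 CPM in proliferating libraries and 233, 265 and 281 CPM in smooth muscle medium, a rise of 5.22 ± 0.10 (edgeR adjusted p = 2.7e-11), while at 21% O2 the change was -0.77. Dcn, the proteoglycan decorin, rose from 0.389 to 13.4 CPM (5.09 ± 0.25) and changed by 4.84 at 21% O2, and the interaction of 0.23 was not called (edgeR adjusted p = 0.446). Tnn, the matrix glycoprotein tenascin-W, rose by 5.09 and Dact1, an intracellular antagonist of Wnt and TGF-beta signalling, by 4.96. For these 2 genes the change at 21% O2 was larger still, at 8.03 and 7.24. Tnnc1, the troponin C of heart and slow skeletal muscle, had 1.46 to 2.07 CPM in the proliferating libraries and 42.0 to 52.9 CPM in smooth muscle medium (4.76). The other genes among the 12 largest rises were Rhov, Spats1, Rab3il1 and Rerg, at 4.82 to 5.24.

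The largest falls by the same rule included receptors, a growth factor and interferon-induced genes. Npr3, the clearance receptor for natriuretic peptides, had 245, 244 and 277 CPM in proliferating libraries and 7.57, 7.22 and 6.18 CPM in smooth muscle medium, a fall of 5.19 on the log2 scale (SE 0.11, edgeR adjusted p = 2.71e-11). At 21% O2 it changed by 1.08. Helz2, Usp18, Lgals3bp, Ifi211 and Samd9l, all known as interferon-inducible, fell by 3.47 to 4.76. Cd248 (endosialin, a surface protein of perivascular cells and fibroblasts) had 155 to 181 CPM in proliferating libraries and 13.4 to 17.4 CPM in smooth muscle medium (-3.49 ± 0.11). Plxna4, a semaphorin receptor, fell by 3.94, Btc (betacellulin, an EGF receptor ligand) by 3.88, Kctd11 by 3.73, Tmem74 by 3.84 and Dhrs9 by 3.54.

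Some called genes had no counts at all on one side, and the genes named in this paragraph were chosen after their values had been seen. Among the 11814 genes tested, 12 such genes had 0 counts in the proliferating group and 25 had 0 in smooth muscle medium. All of them passed the filter on low counts only through the other group, where they are high. Their calls are thus without weight, and only their counts are described. Cx3cr1, a chemokine receptor best known from microglia and macrophages, had 4083, 2831 and 4918 counts in the smooth muscle libraries, 0 in the proliferating libraries and at most 4 in any of the other 22 libraries. Taking 3 counts over the proliferating group as the floor, its level was at least 11984-fold higher. The annotated Cx3cr1 gene spans a long stretch that also holds other coding genes such as Wdr48 and Csrnp1, and the strand setting of the counting is not stated, so the origin of these reads within the span is uncertain. Of the 8 endothelial and blood markers, which include macrophage genes, 2 were tested and both were higher, beside 34.6% of all genes tested. Cd68, a lysosomal protein abundant in macrophages, rose from 4.18 to 33.4 CPM (3.00 ± 0.13) and Pecam1 from 0.721 to 2.27 CPM (1.64 ± 0.43, edgeR adjusted p = 0.00488). Adgre1 and Ptprc, defining markers of macrophages and blood cells, had 0, 0 and 0 and 0, 0 and 3 counts in the smooth muscle libraries. Wnt1, a ligand of the neural tube and midbrain, had 247, 293 and 256 counts (at least 806-fold higher), and Utf1, a chromatin factor of pluripotent cells, had 259, 112 and 157 counts (at least 535-fold higher). Oas3, an interferon-induced RNA sensor, had 202, 132 and 158 counts in proliferating libraries and 0 in smooth muscle medium (at least 54.0-fold lower).

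Among matrix genes, the collagen genes Col1a1, Col1a2 and Col3a1 were lower and the proteoglycan gene Bgn was higher. Of 33 matrix genes, 31 were tested, and 11 were higher and 17 lower, beside 34.6% and 37.1% of all genes tested, with a median of -0.29 beside -0.07. The count of higher genes is thus close to that of all genes. Col1a1, the alpha-1 chain of type I collagen, had 2064, 2041 and 1865 CPM in proliferating libraries and 322, 267 and 302 CPM in smooth muscle medium (-2.74 ± 0.08). Col1a2 went from 3370 ± 52.0 to 1032 ± 118 CPM (SD, n = 3; -1.71 ± 0.08) and Col3a1 from 446 ± 22.5 to 89.6 ± 3.72 CPM (-2.31 ± 0.07). For none of the 3 genes did the groups overlap, and at 21% O2 each changed upward, by 1.68, 1.32 and 2.25. Lox and Loxl2, which cross-link collagen, fell by 1.62 and 2.42, Fbn1 (fibrillin-1) by 2.05 and Tnc (tenascin-C) by 2.56.

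Bgn, the proteoglycan biglycan, rose from 1246, 1216 and 1242 CPM to 6274, 6098 and 5936 CPM (2.31 ± 0.06). Col12a1, a collagen that coats fibrils, rose from 104 to 426 CPM (2.03) and Postn (periostin) from 15.1 to 39.5 CPM (1.38). Fn1 (fibronectin), one of the most abundant matrix genes, rose from 3809 to 4873 CPM (0.36 ± 0.08), a change that becomes -0.79 with the plain library size. The matrix list summed to 18927 to 19441 CPM in proliferating and 19430 to 21088 CPM in smooth muscle libraries with TMM scaling. As a plain share of coding counts it took 2.84% to 2.89% in proliferating and 1.27% to 1.43% in smooth muscle libraries.

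Of 22 genes of the TGF-beta pathway, 8 were higher and 9 lower, with a median of -0.15, and these counts are close to the shares of all genes tested. Tgfbr2 and Tgfbr1, the type II and type I receptors, fell by 1.80 and 0.93, and Ltbp1, which stores latent TGF-beta in the matrix, fell from 636 to 108 CPM (-2.55 ± 0.08). Tgfb3 fell by 0.99, while Tgfb1 rose from 56.5 to 73.3 CPM (0.38, or -0.77 with the plain library size). Tgfbi, a matrix protein named for its induction by TGF-beta, rose from 123, 130 and 146 CPM to 1215, 1312 and 1228 CPM (3.24 ± 0.08). Pmepa1, a feedback inhibitor of the pathway, rose from 3.86 to 9.73 CPM (1.33 ± 0.21). Of 14 genes of YAP and TEAD, the mechanosensitive transcription pair, 9 fell and the other 5 were not called, beside 37.1% lower and 34.6% higher among all genes tested. Those that fell included Ccn2 (-1.49), Axl (-1.12) and Tead1 (-0.94).

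Of 21 genes of FGF signalling and its ERK feedback, 4 were higher, 14 lower and 3 not called, beside 34.6% higher and 37.1% lower among all genes tested, with a median of -0.84. Dusp6, a phosphatase that switches ERK off and is induced by it, had 104, 103 and 103 CPM in proliferating libraries and 34.8, 30.2 and 31.8 CPM in smooth muscle medium (-1.68 ± 0.08). Etv5, an ETS factor downstream of FGF receptors, fell by 2.15, Spred2 by 1.62, Spry2 by 1.48 and Spry4 by 1.11. Etv4, an ETS factor of the same family, was at 67.1 and 69.6 CPM and was not called (0.05 ± 0.11, edgeR adjusted p = 0.697). Egr1, an immediate early target of ERK, went the other way, from 16.6, 14.6 and 14 CPM to 286, 60.4 and 110 CPM (3.34 ± 0.67), again highest in replicate 1. The FGF receptor genes Fgfr1 and Fgfr2 rose by 0.95 and 0.98, values that lie within the range that changes sign with the plain library size.

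Of 13 genes of LIF and STAT3 signalling, 10 were higher and 1 lower, beside 34.6% and 37.1% of all genes tested. Their median of 1.18 becomes 0.04 with the plain library size, and the rises of Stat3 and Il6st, a transcription factor and a receptor chain of the pathway, become -0.29 and -0.82. Cebpb, a STAT3 and stress target, had 44.6, 45.7 and 33.3 CPM in proliferating libraries and 450, 415 and 289 CPM in smooth muscle medium (3.22 ± 0.17). Cebpd rose by 2.59, Pim1 by 2.38, Junb by 2.37 and Socs3, the feedback inhibitor of the pathway, by 1.18. The receptor genes Lifr and Osmr rose by 1.90 and 1.73, and Il6ra fell by 1.48. The ligand gene Lif itself fell from 49.2 to 11.7 CPM (-2.05 ± 0.21).

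Of 21 AP-1 and immediate early genes, 8 were higher and 9 lower, counts close to the shares of all genes tested (34.6% and 37.1%), and the median was -0.21. Beside Fos, Egr1 and Junb, Egr2 rose by 3.73 and Ier5 by 2.10. Jun fell from 370 to 149 CPM (-1.31 ± 0.16), and Fosl1, Fosl2 and Jund fell by 1.52, 0.88 and 0.83. Fosl1, Fosl2 and Jund encode partners or alternatives of Fos and Jun in the AP-1 dimer.

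Most mitotic genes were lower in smooth muscle medium, by about 2-fold at the median of the list. Of 30 mitosis genes, 2 were higher and 26 lower, with a median of -1.13 (34.6% and 37.1% of all genes tested were higher and lower), and of 30 DNA replication genes 5 were higher and 19 lower, with a median of -0.49. Top2a, the topoisomerase that untangles chromosomes, had 345, 334 and 364 CPM in proliferating and 152, 160 and 168 CPM in smooth muscle libraries (-1.12 ± 0.07). Mki67 fell by 1.34, Prc1 by 1.80, Cenpf by 1.70 and Anln by 1.62. Cdc20 and Ube2c, which drive exit from mitosis, were higher, by 0.30 and 0.43, values within the range that changes sign with the plain library size. Among replication genes, Pola1 and Mcm6 fell by 1.35 and 1.11, and Rfc4, a clamp loader subunit, rose from 13.9 to 61.3 CPM (2.14 ± 0.11). At 21% O2 all 30 genes of each list were lower, with medians of -2.22 and -2.20.

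Of the 8 CDK inhibitors and D cyclins tested, 6 were higher and 2 lower, 5 of them by at least 2-fold, beside 34.6% higher, 37.1% lower and 38.4% with at least 2-fold change among all genes tested. Their median of 0.57 becomes -0.57 with the plain library size. Cdkn1c, the CDK inhibitor p57, had 3.33, 3.81 and 3.35 CPM in proliferating libraries and 46.8, 34.7 and 35.8 CPM in smooth muscle medium (3.49 ± 0.16). Ccnd1, the growth factor dependent cyclin D1, fell from 639 ± 19.1 to 254 ± 11.4 CPM (-1.33 ± 0.07), and Ccnd2 fell by 1.45, while Ccnd3 rose by 1.54. The CDK inhibitor genes Cdkn1a (p21) and Cdkn1b (p27) rose by 0.46 and 0.48, values that become -0.69 and -0.67 with the plain library size. Cdkn2a and Cdkn2b had at most 7 counts in any library.

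Genes of the translation machinery rose together. Of 85 cytosolic ribosomal protein genes, 81 were tested and 80 were higher (34.6% of all tested genes were), each of the 80 by more than 2-fold, with a median of 3.34. Rplp0, a protein of the ribosomal stalk, had 2261, 2244 and 2401 CPM in proliferating libraries and 21904, 23636 and 21380 CPM in smooth muscle medium (3.28 ± 0.07). Rps27 rose by 4.10 and Rpl30 by 3.92, and the paralogue Rpl7l1 was the 1 gene of the list that fell, by 0.86. The list took 6.46% to 6.77% of coding counts in the proliferating and 27.8% to 29.7% in the smooth muscle libraries. Many of these genes have processed pseudogenes that can take or lend reads, so single values are uncertain. At 21% O2 the median was -0.71.

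The abundant mRNAs of elongation factors behaved likewise. Eef1a1 had 8749, 8482 and 9103 CPM in proliferating libraries and 75176, 82747 and 78266 CPM in smooth muscle medium (3.16 ± 0.06). Eef2 rose from 4576 to 34889 CPM (2.93) and Tpt1 from 2499 to 33289 CPM (3.74). These genes share with ribosomal protein genes a terminal oligopyrimidine (TOP) start that puts their translation under control of mTOR. A set of 16 TOP mRNAs outside the ribosomal proteins, put together after these values had been seen, summed to 30326 to 31552 CPM in proliferating and 229018 to 242732 CPM in smooth muscle libraries. Vim (vimentin), a member of that set, rose from 7734, 7620 and 7700 CPM to 51544, 55175 and 47075 CPM (2.74). The set and the ribosomal protein genes lie at the top of the level range, where the groups did not overlap for any gene given here.

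Of 84 nuclear genes of oxidative phosphorylation, 78 were tested, 63 were higher and 5 lower (34.6% and 37.1% of all genes tested), with a median of 1.3 that becomes 0.15 with the plain library size. Over the 76 genes with a mean of at least 10 counts in both groups, 62 were higher and 4 lower, again with a median of 1.3. Cox4i1, a subunit of cytochrome c oxidase, rose from 211 to 1959 CPM (3.21), Uqcrh of complex III by 3.68 and Ndufa6 of complex I by 3.84. The 5 genes that fell were Cox7a1 (-2.27, from 0.566 CPM and with a mean under 10 counts in smooth muscle medium), Ndufs1 (-0.71), Ndufa9 (-0.48), Sdha (-0.48) and Sdhb (-0.42). Mitochondrial counts were higher in the same libraries (13.9% ± 0.65 against 0.791% ± 0.0352, SD, n = 3), and 12.4% of all counts fell on the 2 mitochondrial ribosomal RNAs in smooth muscle medium against 0.0867% in proliferating cultures.

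Replication-dependent histone mRNAs end in a conserved stem-loop in place of a poly(A) tail, so they are poorly sampled when polyadenylated RNA is selected. All 65 genes of the list together took 0.0353% to 0.0383% of coding counts in smooth muscle libraries and 0.00579% to 0.00619% in proliferating libraries. Of the 36 that passed the filter, 21 had a mean under 10 counts in the proliferating group and so passed through the smooth muscle libraries, where they are high, which leaves their count of calls (32 higher, 1 lower) without weight. The stem-loop is shown because it stands in place of the poly(A) tail. The annotated transcripts it was copied from do not end there. They run on for 840 bases after it in Hist1h1c, 330 in Hist1h4i and 822 in H2afx. Which ends the counted RNAs had was not tested. The search found it in 27 of the 36 tested genes of the list and not in the other 9. Capitals mark the 2 stem arms of 6 bases, with the loop and 5 bases on each side in lower case, 5′ to 3′, from the transcripts of GENCODE M21 on GRCm38.
Hist1h1c: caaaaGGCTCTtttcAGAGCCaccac
Hist1h4i: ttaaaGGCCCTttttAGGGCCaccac
H2afx: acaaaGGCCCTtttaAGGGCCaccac
Both histone genes of the list shown had a mean of at least 10 counts in each group. Hist1h1c (linker histone H1, chromosome 13, 23738808 to 23740367) had 18.9, 18.6 and 20.2 CPM in proliferating libraries and 257, 308 and 262 CPM in smooth muscle medium (3.84 ± 0.10). Hist1h4i (histone H4, chromosome 13, 22040636 to 22041362) had 0.918, 0.553 and 0.83 CPM and 18.8, 22.9 and 27.9 CPM (4.90 ± 0.24). Hist1h2bc (histone H2B), in which the search found no stem-loop, had 5.88, 5.65 and 6.17 CPM and 58.0, 46.7 and 59.9 CPM (3.22 ± 0.13). H2afx, a variant known to be made both with a stem-loop and with a poly(A) tail, carries the same kind of stem-loop and fell from 94.7 to 23.6 CPM (-2.0 ± 0.14). The 16-base pattern was found in the transcript of 30 of the 11814 tested genes (0.254%). The 3 outside the list were H2afx, the histone H4 gene Hist2h4 (2.98) and Lyst, which is no histone gene (-1.16). Histone genes of the same type are near copies of each other, so reads may be shared between them. Slbp, which encodes the protein that binds this stem-loop, fell from 38.7 to 24.3 CPM (-0.67 ± 0.10).

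Atf4, the stress transcription factor gene that heads the amino acid response, rose, while most genes of the response were lower. Atf4 had 278, 293 and 311 CPM in proliferating libraries and 1323, 1158 and 1176 CPM in smooth muscle medium (2.05 ± 0.08). Of 26 tested genes of the list, 6 were higher and 19 lower, beside 34.6% and 37.1% of all genes tested, with a median of -1.27. Trib3, a pseudokinase induced by ATF4, fell from 53.5 to 5.89 CPM (-3.17 ± 0.21), Stc2 by 2.67, and the amino acid transporters Slc7a5 and Slc7a11 by 2.30 and 2.28. Asns (asparagine synthetase) fell by 0.86 and the serine synthesis gene Phgdh by 1.31. Ppp1r15a (GADD34), which lifts the block on translation, rose from 25.2, 23.7 and 29.5 CPM to 658, 120 and 264 CPM (3.74 ± 0.73), with the replicate order of Hspa1a. Ddit3, the stress factor CHOP, is listed at 0 in all 6 libraries under the single gene identifier read here. Whether its reads were counted under another identifier was not tested, so the 0 does not show that the gene was silent.

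Of 13 heat shock genes, 9 were higher, 2 lower and 2 not called, beside 34.6% higher and 37.1% lower among all genes tested, and their median of 1.04 becomes -0.10 with the plain library size. Hsp90ab1, the constitutive HSP90 beta, rose from 3319 to 15893 CPM (2.26 ± 0.06) and Hspa8, the constitutive HSC70, from 1284 to 7890 CPM (2.62). Hsp90aa1, the inducible HSP90 alpha, fell by 0.61, and the co-chaperone gene Dnajb1 was not called (0.08, edgeR adjusted p = 0.443). Among chaperones of the endoplasmic reticulum, 4 of 15 were higher and 7 lower, counts near the shares of all genes tested (34.6% and 37.1%). Hsp90b1 (GRP94) fell from 1338 to 663 CPM (-1.01 ± 0.08) and Pdia6 from 299 to 66.8 CPM (-2.16), while Dnajb9 rose by 2.62.

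Of 18 p53 targets, 14 were higher and 1 lower, beside 34.6% and 37.1% of all genes tested, and the median of 0.56 becomes -0.59 with the plain library size. Over the 17 targets with a mean of at least 10 counts in both groups, 13 were higher and 1 lower, with a median of 0.54. Bax, a pore-forming protein of apoptosis, had 48.8, 49.2 and 50.9 CPM in proliferating libraries and 208, 203 and 184 CPM in smooth muscle medium (2.00 ± 0.08). Aen rose by 1.29, Zmat3 by 1.25 and Pmaip1 (NOXA) by 1.21, and Sesn1 fell by 1.01. Of 14 tested BCL2 family genes, 6 were higher and 1 lower, the former near the share of all genes (34.6%). The median of 0.34 becomes -0.81 with the plain library size and 0.20 without proliferating replicate 1. The 1 that fell was Bcl2, an inhibitor of apoptosis (-0.98 ± 0.20).

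Of 21 interferon response genes, 20 were tested, 4 were higher and 13 lower (34.6% and 37.1% of all genes tested), with a median of -1.67, against 0.45 at 21% O2. Ifit1, Parp14 and Ifih1 had a mean under 10 counts in smooth muscle medium and so passed the filter through the proliferating libraries, where they are high. Of the other 17 genes, 4 were higher and 10 lower, with a median of -1.18. Stat2 and Irf9, transcription factors that relay interferon signals, fell by 2.27 and 1.13. Oasl2, an interferon-induced antiviral gene, had 14.2, 14.3 and 13.9 CPM in proliferating libraries and 2.81, 1.44 and 0.783 CPM in smooth muscle medium (-3.02 ± 0.31), with no overlap. Dhx58, which encodes a sensor of viral RNA, fell by 2.79. The antigen presentation genes B2m and Psmb8 rose by 1.11 and 2.37. Of 15 tested NF-kappaB and cytokine genes, 4 were higher and 7 lower, counts near the shares of all genes tested (34.6% and 37.1%). Relb and Nfkb2 of the noncanonical branch rose by 1.82 and 1.49, and Nfkb1 of the canonical branch fell by 0.75.

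Of 24 genes of sterol and fatty acid synthesis, 6 were higher, 15 lower and 3 not called, beside 34.6% higher and 37.1% lower among all genes tested, with a median of -0.90. Acly fell by 2.40, Lss by 2.10, Acaca by 2.00, and Scd2, the most abundant coding gene among the falls of at least 2-fold, from 3484 to 1001 CPM (-1.80 ± 0.06). Of the 6 that were higher, Srebf2, a transcription factor gene of the pathway, rose by 1.21, and Insig1, which retains that factor in the endoplasmic reticulum, by 1.51. Of 15 NRF2 targets of the antioxidant response, 4 were higher and 10 lower, beside 34.6% and 37.1% of all genes tested, with a median of -0.71. Those lower included Srxn1 (-2.22) and Gsr (-1.51). The ferritin genes Ftl1 and Fth1 rose by 2.31 and 1.54.

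Of 18 genes of autophagy and the lysosome, 13 were higher, 1 lower and 4 not called, beside 34.6% higher and 37.1% lower among all genes tested. The median was 1.24 beside 1.21 at 21% O2, and it becomes 0.10 with the plain library size. Lamp2, a lysosomal membrane protein, had 143, 147 and 148 CPM in proliferating libraries and 900, 882 and 892 CPM in smooth muscle medium (2.61 ± 0.06). Its change at 21% O2 was 2.53, and the interaction of 0.06 was not called (edgeR adjusted p = 0.66). The enzyme genes Hexa and Ctsd rose by 2.81 and 1.84. Sqstm1 (p62), an autophagy receptor, rose by 1.3, and Becn1, which starts autophagosome formation, fell by 0.38.

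Of 21 glycolysis genes, 6 were higher and 11 lower, beside 34.6% and 37.1% of all genes tested. Their median was -0.24 beside -0.07 for all genes, and -0.38 without proliferating replicate 2. Pgk1 had 4230, 4245 and 4642 CPM in proliferating libraries and 30548, 31867 and 32162 CPM in smooth muscle medium (2.85 ± 0.06), while at 21% O2 it changed by -2.12. Gpi1 and Eno1 rose by 2.90 and 1.82, and Gapdh by 3.84 ± 0.57, with few counts for so abundant a gene. Pgk1, Eno1 and Gapdh have processed pseudogenes that can share their reads. Genes at the entry and exit of the pathway were among those that fell, with Hk2 (hexokinase 2) going from 200, 200 and 222 CPM to 31.2, 34.9 and 48.3 CPM (-2.45 ± 0.14). Pfkp fell by 2.28 and the lactate exporter Slc16a3 by 2.66. Slc2a1, the main glucose transporter, and Ldha were at 0.12 and -0.08 and were not called. With 1 library left out, Slc2a1 ran from 0.03 to 0.19, with a lowest edgeR adjusted p of 0.0337. Of 20 other hypoxia genes, 8 were higher and 10 lower, not far from the shares of all genes tested (34.6% and 37.1%). Among them, Car9 (carbonic anhydrase 9) rose by 1.74 and P4ha1 by 1.32, while Egln3 and Hif1a fell by 1.39 and 1.02.

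Neural crest regulators were in part absent in both groups. Of 23 genes, 14 were tested, 2 were higher and 6 lower (34.6% and 37.1% of all genes tested). Sox10, Foxd3, Pax3 and Ngfr had 0 counts in all 6 libraries. Twist1, a mesenchymal factor of the cranial crest, had 59.6, 61.3 and 54.9 CPM in proliferating libraries and 453, 423 and 367 CPM in smooth muscle medium (2.82 ± 0.09). Tfap2a rose by 1.78. Sox9, which directs crest and cartilage fates, fell from 123, 123 and 116 CPM to 29.6, 22.9 and 26.4 CPM (-2.20 ± 0.10) and Prrx1 fell by 1.23.

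Few markers of other cell types reached the filter, and those that did went both ways. Of 13 chondrocyte markers 3 were tested, and Acan (aggrecan) fell from 50.5 to 5.28 CPM (-3.26). Of 12 osteoblast markers 5 were tested, with Spp1 (osteopontin) falling from 1469 to 730 CPM and Runx2 rising from 37.4 to 68.9 CPM (0.88, or -0.27 with the plain library size). The osteoblast markers summed to 1444 to 1675 CPM in proliferating and 755 to 886 CPM in smooth muscle libraries, nearly all from Spp1. Markers tested numbered 1 of 10 for skeletal muscle, 3 of 8 for adipocytes, 4 of 10 for neurons and glia, 2 of 8 for endothelium and blood and 1 of 7 for epithelium. The summed level in smooth muscle libraries was 1.48 to 4.54 CPM for the skeletal muscle and 33.6 to 37.4 CPM for the endothelial and blood markers, against 0.99 to 1.47 CPM and 4.83 to 5.27 CPM in proliferating libraries. The endothelial and blood sum in smooth muscle medium came nearly all from Cd68.

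**Figure D4:**
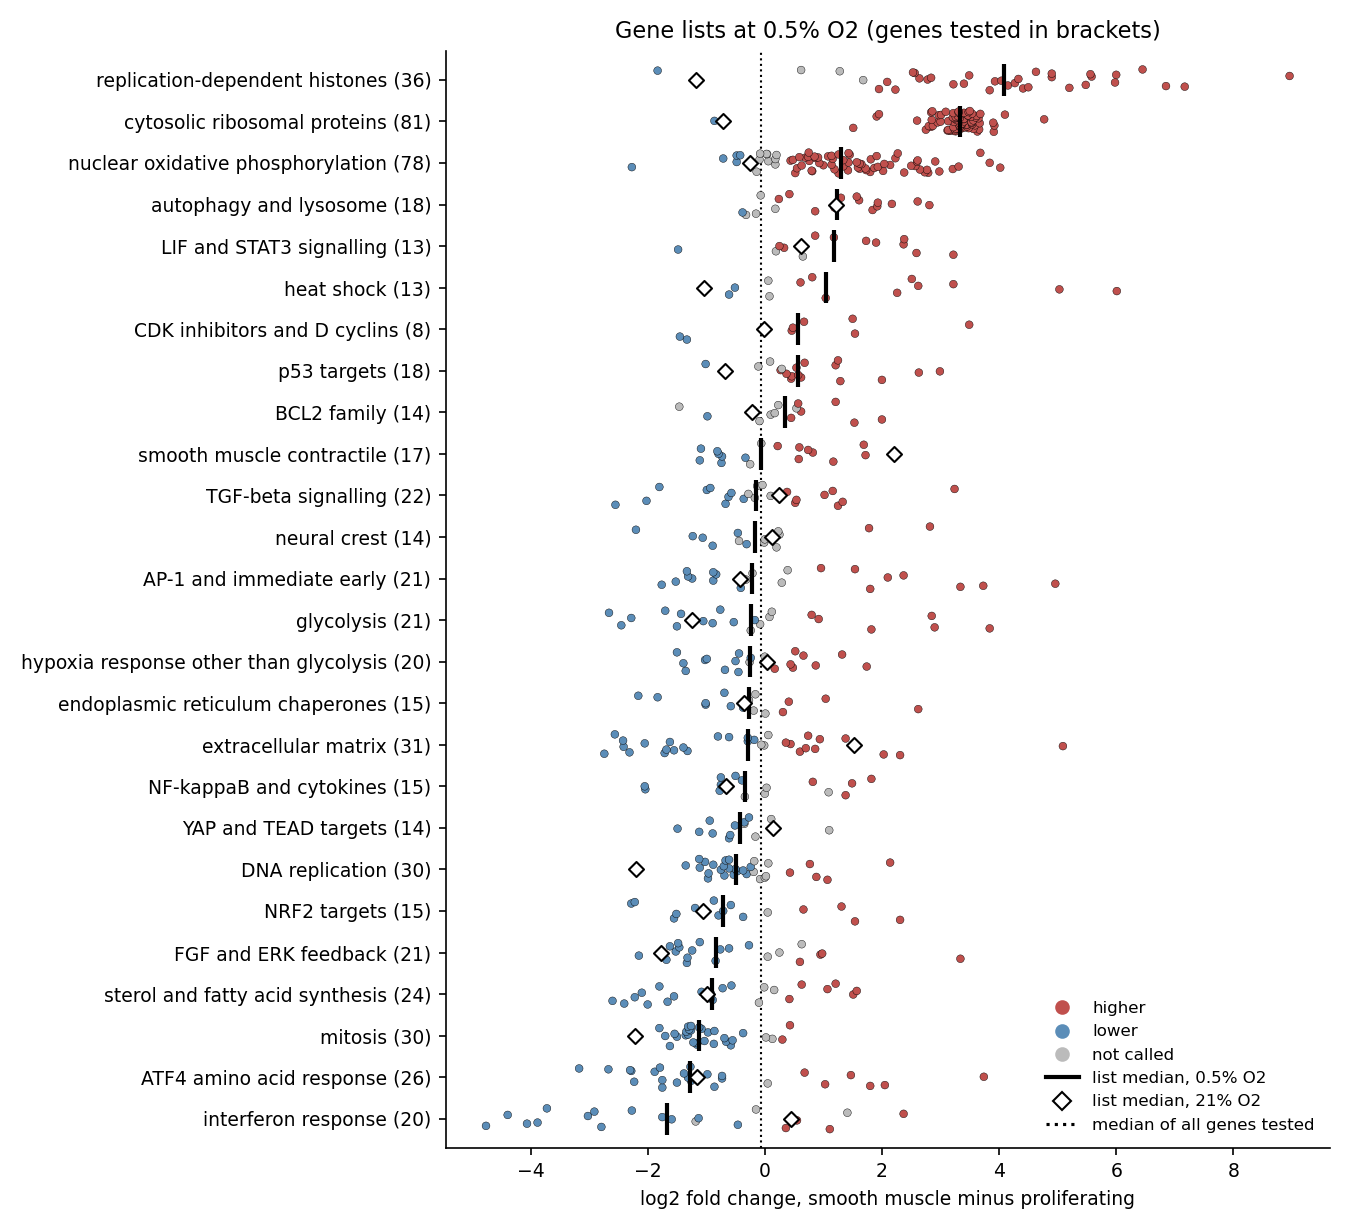
Log2 fold change (horizontal axis) of each tested gene of 26 lists at 0.5% O2, coloured by call, with the list median at 0.5% O2 as a bar, the list median at 21% O2 as a diamond and the median of all genes tested (-0.07) as a dotted line. Ribosomal proteins lie around their median of 3.34 and most interferon response genes lie left of 0, with a median of -1.67 that is -1.18 over the 17 genes with a mean of at least 10 counts in both groups. The position of the histone list is not read as a result, because 21 of its 36 tested genes passed the filter through the smooth muscle libraries.

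The change differed with the length of the transcript. Genes were put in 5 bins by the length of the annotated transcript with the longest coding sequence. The shortest bin (201 to 1713 bases, 2367 genes) had a median log2 change of 0.78, and the following bins had 0.22, -0.10, -0.33 and, for transcripts of 4939 bases and more (2362 genes), -0.67. Genes called higher made up 59.6% of the shortest and 14.6% of the longest bin, and genes called lower 14.2% and 61.0%. Without the ribosomal protein, oxidative phosphorylation and histone genes the medians of the first and last bin were 0.67 and -0.66. At 21% O2 the medians of the 5 bins lay between -0.23 and 0.08. Many of the genes named above follow the same order of length, with ribosomal proteins short and Flna, Fbn1 and the fibrillar collagens long, and the part of length in their values was not tested.

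**Figure D5:**
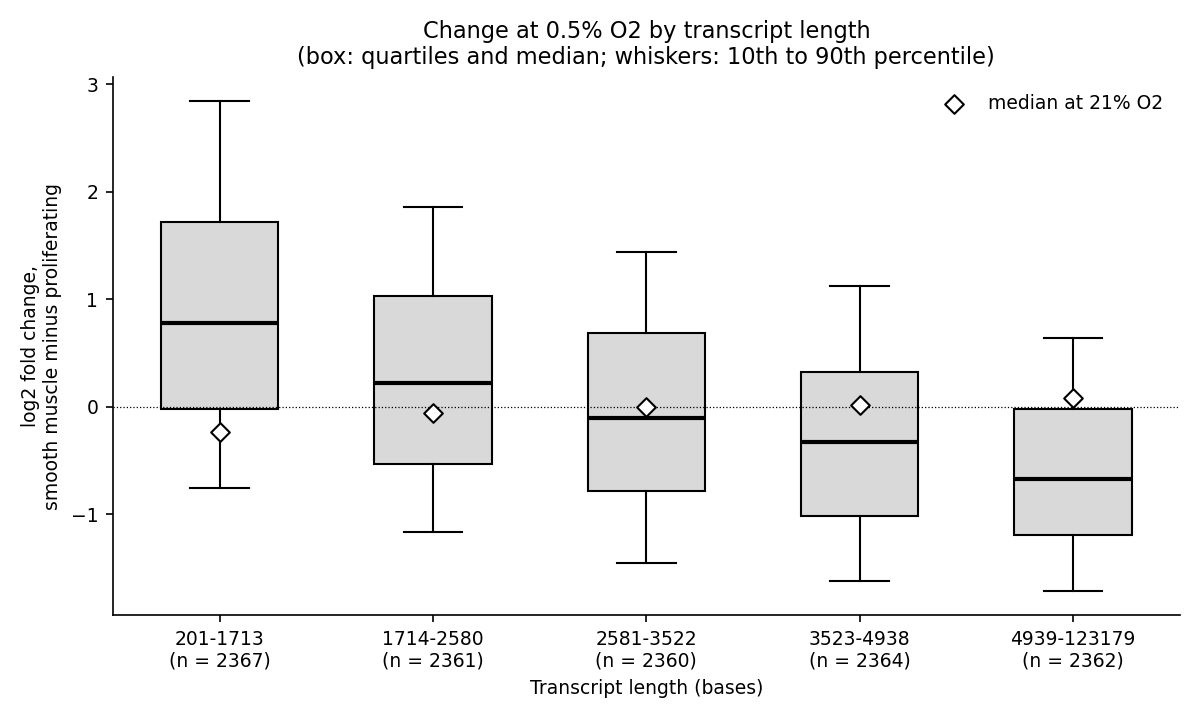
Log2 fold change at 0.5% O2 (vertical axis) of coding genes in 5 bins of transcript length (bases, number of genes in brackets). Boxes give quartiles and median, whiskers the 10th to 90th percentile, and diamonds the median change at 21% O2. Medians step down from 0.78 to -0.67 at 0.5% O2.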

How the data were processed

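Polyadenylated RNA of O9-1 cultures was sequenced from stranded libraries, per the labels. The deposited values are raw read counts per gene, which the authors obtained with HISAT2 2.0.5, StringTie 1.3.3b and featureCounts 1.5.0-p3 on mm10, per the submitters' processing notes; the role of each tool, the annotation release and the strand setting are not given in the sources used here. A further 70 per-library columns of the comparison tables, and the log2 fold changes and p-values the authors deposited in them, were not used.

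Gene class, position and transcript length were taken from GENCODE M21 (GRCm38, the same build). Library size was the sum over nuclear coding genes. The main test was edgeR 4.0.16 under R 4.3.3 (TMM, filterByExpr with a minimum of 10 counts, robust quasi-likelihood fit, Benjamini-Hochberg over all genes tested), fitted to the 6 libraries, and the interaction to 14. The standard error of a log2 change was taken as its size over the root of F. Alternatives were DESeq2 1.42.0, limma 3.58.1 (voom), other scalings and filters, all hypoxic libraries in the fit, a replicate block and leaving out each library. The script was tested on simulated data. No pairing by replicate number was made: libraries of equal number had residual correlations of -0.016, 0.005 and 0.038.

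Named genes were, among called genes without overlap in CPM with at least 10 mean counts in both groups and 10 CPM in the higher one, the 12 largest changes each way, the 6 most abundant with at least 2-fold change each way, (unnamed gene models, ribosomal protein genes and replication-dependent histones passed over), and the first 4 of each list; further list members illustrate their lists and were picked with values in view. The genes, lists and rules were chosen with earlier results of these data known.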

Additional observations from a re-analysis of the deposited data

Results flagged for a closer look

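The test of the difference between the change at 0.5% O2 and the change at 21% O2 called 9573 of 12706 genes (75.3%), so a difference of this kind was the common case among coding genes. For Actg2, Lmod1, Cnn1 and Myh11, which had too few counts at 0.5% O2, the fitted size is not given. On the log2 scale the change at 0.5% O2 lay below that at 21% O2 by -7.06 for Mylk, -6.60 for Acta2, -5.62 for Myl9, -5.61 for Synpo2, -4.85 for Itga8, -4.50 for Tagln and -3.05 for Smtn. Smaller differences in the same direction were -2.35 for Cald1, -2.0 for Tpm1, -1.81 for Mrtfb, -1.73 for Flna, -1.16 for Csrp1, -1.09 for Vcl and -1.0 for Mrtfa. The opposite direction was found for Srf at 0.87, Tpm2 at 0.49 and Pdlim7 at 0.38. The plain library size turned these 3 differences negative.

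Counts outside the coding genes also stood apart in smooth muscle medium at 0.5% O2. The mean share of all counts was 13.9% for mitochondrial genes, 3.28% for pseudogenes and 0.0725% for Rn7sk. The highest values in the 25 libraries outside the group were 1.36%, 1.423% and 0.0013%. All 3 smooth muscle libraries at 0.5% O2 lay above them.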

How the results depend on the processing

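With DESeq2's Wald test 8448 genes were called and with limma-voom 8682, and leaving out each library in turn gave 7719 to 8736 (3794 to 4195 higher, 3921 to 4541 lower, 4418 to 4802 with at least 2-fold change). A replicate block called 8302 genes (3954 higher, 4348 lower) and, in the interaction, 9326. Libraries of equal number did not deviate together, and only number 3 correlated best with its own. With 3 libraries in each group this shows no pairing by number but cannot exclude it. TMM on all genes and upper quartile factors moved the median of all genes to -0.19 and -0.15. The plain coding library size moved it to -1.22, and changed the counts most: 1433 genes were higher, 8559 lower and 7394 changed at least 2-fold, and in the interaction 1809 were higher and 8471 lower. Among the genes named by the fixed rules, and leaving aside further list members, the same setting reversed rises of Tagln (-0.55), Fn1 (-0.79), Tgfb1 (-0.77), Smad7 (-0.12), Il6st (-0.82), Stat3 (-0.29), Vegfa (-0.63), Bnip3 (-0.98), Ndrg1 (-0.49), Cdkn1a (-0.69), Cdkn1b (-0.67), Hspa5 (-0.74), Hsph1 (-0.34), Mdm2 (-0.87), Bbc3 (-0.70), Phlda3 (-0.61), Mcl1 (-0.57), Nfkbia (-0.32), Irf1 (-0.60), Hmox1 (-0.48) and Runx2 (-0.27). It also reversed the medians of CDK inhibitors and D cyclins (-0.57), heat shock (-0.10), p53 targets (-0.59), the BCL2 family (-0.81) and replacement histones (-0.93), and the interactions of Tpm2 (-0.74), Srf (-0.35) and Pdlim7 (-0.85). By construction it does not allow for the larger share of counts that a few genes take in smooth muscle medium. With 1 library left out the NF-kappaB median ran from -0.38 to 0.03, the latter without smooth muscle replicate 1, and the cause was not tested. Of 726 values of named genes with 1 library left out, 18 lost and 10 gained a call. Without the filter on low counts 8763 genes were called. Cnn1 and Myh11 did not pass the filter at 0.5% O2 and were not tested there.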
